A study of Homo sapiens with 3 samples.

Results

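Hypoxia response and glycolysis genes were followed in 22RV1 cells, a SPINK1-positive human prostate cancer cell line, with 3 lentiviral short hairpins against SPINK1. The set held 39 genes, chosen by name after their ratios with hairpin 1 had been seen in these arrays. It comprised 4 genes of the hypoxia-inducible factor (HIF) subunits and oxygen sensors, 12 HIF targets, and 23 genes of glucose uptake and glycolysis. All 39 were on the array, among 43317 gene names in all. A probe was kept where the scanner software marked it as well above background throughout, in the Cy5 or the Cy3 channel of each array, which left 36 of the 39 genes and 17061 of the 43317. CA9, EGLN3 and SLC2A3 were not well above background and are given no ratio. Because the genes were selected on the contrast between hairpins, their values are descriptions and no test is attached to them.

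The shSPINK1 cells were stable lines made with pGIPZ lentivirus and kept under puromycin (1 µg/mL), and the shSCRM control cells carried a scrambled hairpin in the same vector. All lines therefore shared the vector and the selection. RNA of 22RV1-shSPINK1-1, 22RV1-shSPINK1-2 and 22RV1-shSPINK1-3 was labeled with Cy5, and RNA of 22RV1-shSCRM with Cy3, on 3 arrays with 2 colors, 1 array per hairpin and no dye swap. A log2 ratio below 0 therefore means less signal with the SPINK1 hairpin than with shSCRM. A fixed dye effect of a probe cancels in the difference between hairpin 1 and the mean of hairpins 2 and 3, but not in a ratio by itself. The arrays share the shSCRM line as control, and the labels do not say whether its RNA was a single extract. Nothing in the labels says that the lines came from separate cultures, and hairpin 1 was measured on 1 array, so the hairpin and its array cannot be told apart.

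HIF is a transcription factor made of an oxygen-labile alpha subunit (HIF1A or EPAS1) and a stable partner, ARNT. Under normal oxygen, prolyl hydroxylases of the EGLN family mark the alpha subunit for destruction. When oxygen is low the alpha subunit persists and HIF binds short elements in DNA with the core ACGTG or GCGTG. Its targets include mitophagy receptors, collagen-modifying enzymes, angiogenic factors, and most steps of glycolysis, the cytosolic route from glucose to pyruvate and lactate. Prostate luminal cells are known for an unusual citrate metabolism, and the use of glycolysis by prostate cancer cells has been studied for that reason. The EGLN enzymes act on the HIF1A and EPAS1 proteins, whose amounts these RNA arrays do not measure.

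The silenced gene was checked first. SPINK1 had log2 ratios of -3.71, -3.65 and -3.89 with hairpins 1, 2 and 3, for a mean of -3.75 ± 0.12 (SD, n = 3). By limma with Benjamini-Hochberg adjustment over all genes, the adjusted p was 6e-07. Hairpin 1 and the mean of the others differed by 0.06 for SPINK1, less than the SD between the arrays. On the arrays of hairpins 1, 2 and 3, 46.8%, 41.3% and 41.3% of gene spots were well above background in Cy5. In Cy3 the shares were 42.6%, 38.8% and 39%, and 0 spots were saturated. The array of hairpin 1 was thus the brightest in both channels, with a median Cy5 brightness of 24.2 against 18 and 17.7. The part of this in the ratios was not tested. Of the prostate markers, KLK2, KLK3, HOXB13, TMPRSS2, FOLH1, KRT8 and KRT18 were measured; these 7 are part of a longer list. Of 10 fibroblast and blood cell markers, 4 were measured. These were DCN, COL1A1, CD14 and PTPRC, whereas CD3E, COL1A2, COL3A1, HBB, PDGFRB and PECAM1 were not well above background.

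The upstream sequences of 4 genes are shown because the ratio of each with hairpin 1 was more than 0.5 below the mean of the others and each holds CACGTG, which contains a HIF core. Each is the stretch of 250 bases before the first start site that RefSeq lists for the gene (GRCh38.p14), read along the strand of the gene, with ACGTG and GCGTG on either strand in capitals. BNIP3 lies at chr10:131981924-131982173 on the minus strand, ANKRD37 at chr4:185396591-185396840 on the plus strand, LDHA at chr11:18394313-18394562 on the plus strand, and ALDOC at chr17:28576896-28577145 on the minus strand.
BNIP3: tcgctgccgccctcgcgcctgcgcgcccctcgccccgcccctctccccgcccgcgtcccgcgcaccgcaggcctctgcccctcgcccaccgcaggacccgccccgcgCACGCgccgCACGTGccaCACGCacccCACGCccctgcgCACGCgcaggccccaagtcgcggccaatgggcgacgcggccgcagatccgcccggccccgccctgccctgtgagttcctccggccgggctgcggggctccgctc
ANKRD37: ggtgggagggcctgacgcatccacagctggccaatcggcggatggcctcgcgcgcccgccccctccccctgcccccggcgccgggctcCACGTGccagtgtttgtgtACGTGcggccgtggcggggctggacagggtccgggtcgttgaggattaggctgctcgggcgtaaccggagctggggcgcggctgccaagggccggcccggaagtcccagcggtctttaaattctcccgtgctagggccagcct
LDHA: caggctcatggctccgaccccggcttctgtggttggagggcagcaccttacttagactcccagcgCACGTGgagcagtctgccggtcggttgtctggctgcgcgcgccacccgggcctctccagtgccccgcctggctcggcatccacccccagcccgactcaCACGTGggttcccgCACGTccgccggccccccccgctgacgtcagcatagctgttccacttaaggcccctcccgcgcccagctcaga
ALDOC: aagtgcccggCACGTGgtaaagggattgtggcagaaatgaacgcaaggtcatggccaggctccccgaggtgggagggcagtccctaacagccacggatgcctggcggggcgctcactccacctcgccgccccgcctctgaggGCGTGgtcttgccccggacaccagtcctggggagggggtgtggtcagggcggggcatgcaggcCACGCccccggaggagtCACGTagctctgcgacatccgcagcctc
Each of the 4 stretches holds CACGTG, a palindrome that contains ACGTG on both strands and is also the E-box read by other factors. LDHA holds it in 2 places. Read in this window, a match is only a match of letters.

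Upstream sequences were listed for 35 of the 39 genes, and not for BNIP3L, NDRG1, SLC2A3 and VEGFA. ACGTG or GCGTG on either strand was found in 22 of the 35 (62.9%), against 43.1% of all 27305 RefSeq stretches of this length and 57.5% of the 9962 that belong to genes kept on the array. By role, the core was present in 7 of 9 HIF targets, 12 of 22 glucose uptake and glycolysis genes and 3 of 4 subunits and sensors. CACGTG was found in 5 of the 35: BNIP3, ANKRD37, LDHA and ALDOC, together with GAPDH. Its share was 6.49% of all stretches and 9.2% of those of genes kept on the array. Among the 7 listed genes whose ratio with hairpin 1 was more than 0.5 below the mean of the others, 4 held CACGTG, against 1 of the 26 other genes with both a stretch and a ratio. For ACGTG or GCGTG the same split was 5 of 7 (71.4%) against 16 of 26 (61.5%). The split uses the ratios on which the genes were chosen, and is a description only. PFKFB4 held GCGTG only, and the first stretches listed for PDK1 and SLC16A3 held neither core, although 1 of 2 listed for PDK1 and 3 of 5 listed for SLC16A3 did.

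With hairpin 1 the HIF targets stood at a median log2 ratio of -0.30 over the 11 measured, against -0.02 with hairpin 2 and 0.04 with hairpin 3. The 22 glucose uptake and glycolysis genes stood at -0.21, -0.09 and 0.03. The 3 measured genes of the HIF subunits and oxygen sensors stood at -0.05, -0.09 and 0.09. Over all 17061 genes the medians were -0.02, -0.01 and -0.01. The HIF targets were therefore the lowest of the 3 groups with hairpin 1, and near the median of all genes with hairpins 2 and 3.

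Of the 36 measured genes, 10 had a log2 ratio below -0.5 with hairpin 1, 2 with hairpin 2 and 1 with hairpin 3. Over all genes the corresponding shares were 1.04%, 0.95% and 0.703%. Among HIF targets these were 5 with hairpin 1 and 2 with hairpin 2. Among glucose uptake and glycolysis genes they were 5 with hairpin 1 and 1 with hairpin 3. Hairpin 1 gave a lower ratio than both other hairpins for 26 of the 36 genes, and a higher ratio than both for 4, where 37.5% and 35.7% of all genes did so. By group, 10 of 11 HIF targets and 16 of 22 glucose uptake and glycolysis genes were lower with hairpin 1 than with both others. These counts were fixed by how the genes were chosen.

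**Figure D1:**
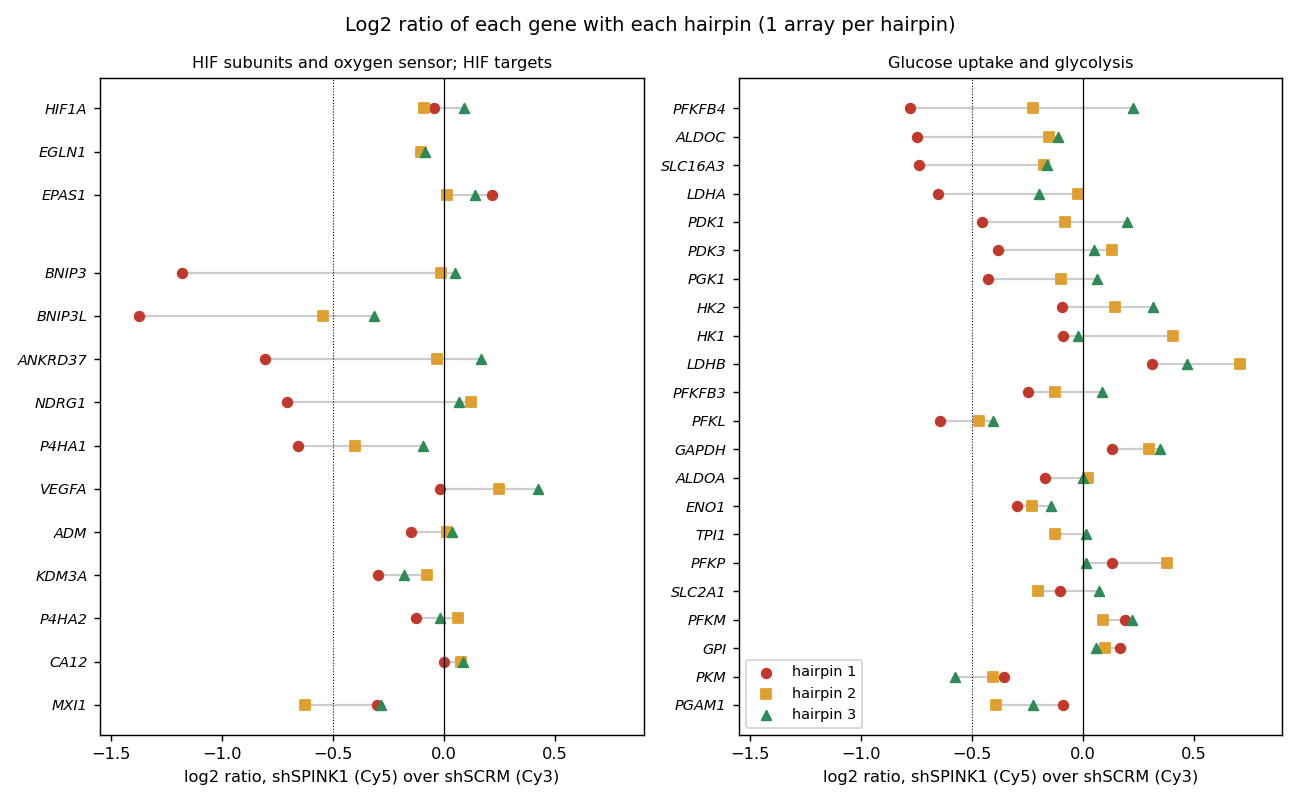
Log2 ratio of shSPINK1 over shSCRM (x axis) for the 36 measured genes (y axis) with hairpin 1 (circles), hairpin 2 (squares) and hairpin 3 (triangles), with HIF subunits, the oxygen sensor and HIF targets on the left and glucose uptake and glycolysis on the right; gray lines join the lowest and highest hairpin, and the dotted line marks -0.5. The circles of BNIP3 and BNIP3L lie below -1, whereas the 3 symbols of PKM and of PFKL lie together.

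The HIF subunits and the oxygen sensor showed small ratios with each hairpin under the processing reported. HIF1A, the alpha subunit found in most cells, had log2 ratios of -0.05, -0.09 and 0.09 with hairpins 1, 2 and 3. Its probe was spotted 10 times on each array, with an SD between spots of 0.0786, 0.0631 and 0.0769, so hairpins 1 and 2 differed by less than the spread between spots. A second, dimmer HIF1A probe gave -0.11, -0.18 and -0.25, and its Feature Extraction ratios, without the offset, were -0.21, -0.65 and -0.71. EPAS1, the HIF-2 alpha subunit, had 0.21, 0.01 and 0.14, from a dim probe at the 23.2nd percentile of brightness among kept genes. The Feature Extraction ratios of EPAS1 were 0.64, 0.10 and 0.45. EGLN1, the main oxygen-sensing prolyl hydroxylase, had -0.11, -0.11 and -0.09, about the same with each hairpin.

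The pair of mitophagy receptors BNIP3 and BNIP3L, which tether mitochondria to the autophagy machinery, had the lowest ratios with hairpin 1 among the 36 measured genes. In the Feature Extraction ratios, without the offset, ANKRD37 was lower with hairpin 1 (-1.48) than BNIP3L (-1.39) and BNIP3 (-1.23). BNIP3 had a log2 ratio of -1.18 with hairpin 1, -0.02 with hairpin 2 and 0.05 with hairpin 3, which leaves 44.1%, 99.0% and 104% of the shSCRM signal. The Cy5 brightness of its probe was 768, 1500 and 1530, while the Cy3 brightness was 2330, 2160 and 2180. The contrast therefore lay in the shSPINK1 channel, and the control channel was similar on the 3 arrays. The difference between hairpin 1 and the mean of the others, -1.20, ranked 2 among 17060 genes with a value on each array, counted from the lowest.

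BNIP3L had ratios of -1.37, -0.54 and -0.32, so that hairpins 2 and 3 were also below 0 and the difference was -0.94. This value comes from the brightest of 3 kept probes for the gene, and the probes did not give the same value. The one reported (chr8:26270286-26270345, hg19) and a dimmer one (chr8:26252758-26252817) are both assigned to transcript NM_004331. The dimmer probe gave -0.42, -0.21 and -0.12. The remaining probe, assigned to AF370457 (chr8:26254988-26255047), gave 0.21, 0.18 and 0.19, with no separation of the hairpins.

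ANKRD37 and NDRG1 showed the contrast most like that of BNIP3, with hairpins 2 and 3 close to 0. ANKRD37, a small ankyrin repeat protein induced by hypoxia, had log2 ratios of -0.81, -0.03 and 0.17, a difference of -0.88 and rank 7; its probe is dim enough for the offset to matter, and the difference was -1.64 in the Feature Extraction ratios. NDRG1, a stress-induced gene that is also regulated by androgen in prostate cells, had -0.71, 0.12 and 0.07, a difference of -0.80 and rank 11. P4HA1, the catalytic subunit of collagen prolyl 4-hydroxylase, had -0.66, -0.40 and -0.10, and so was graded across the hairpins. P4HA2, its paralog, had -0.12, 0.06 and -0.02.

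The other HIF targets lay nearer to 0 under this processing. VEGFA, the angiogenic growth factor, had log2 ratios of -0.02, 0.25 and 0.42, so its difference of -0.35 came from values above 0 with hairpins 2 and 3 rather than from a low value with hairpin 1. Its second probe gave -0.19, 0.05 and -0.03. ADM, a vasodilator peptide, had -0.15, 0.01 and 0.04, with an SD between its 10 spots of 0.0948 with hairpin 1, and the histone demethylase KDM3A had -0.30, -0.08 and -0.18. The KDM3A probe was among the dimmest, and its Feature Extraction ratios were -1.12, -0.09 and -0.69. The membrane carbonic anhydrase CA12 had 0.00, 0.08 and 0.09. MXI1, an antagonist of MYC, was the HIF target that was not lowest with hairpin 1. It had -0.30, -0.63 and -0.29, and its second probe, from the same transcript, had 0.05, 0.01 and 0.14.

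**Figure D2:**
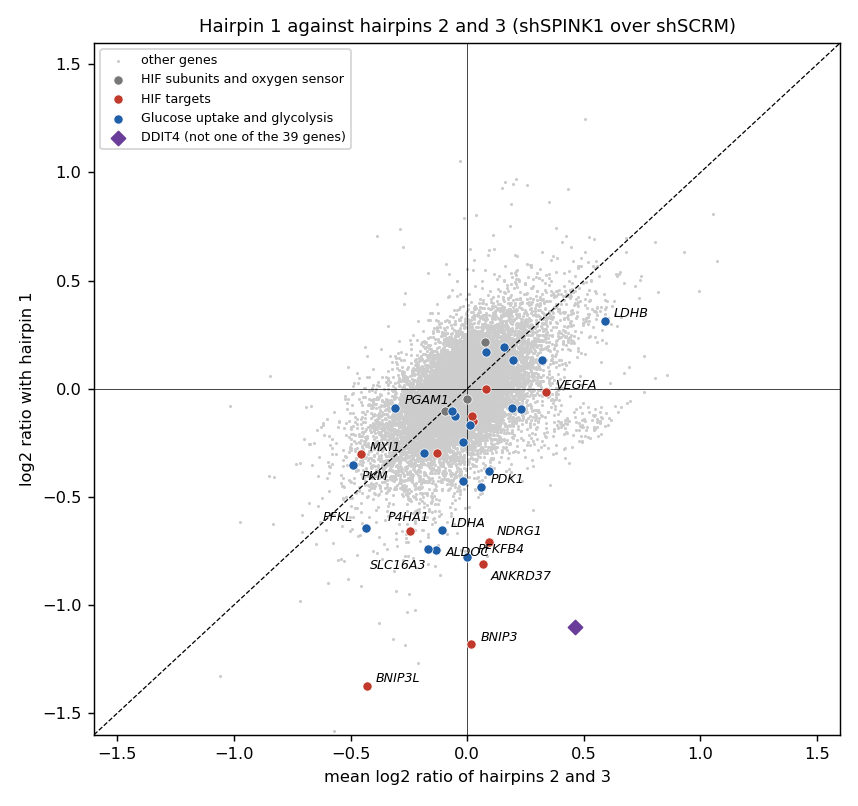
Log2 ratio with hairpin 1 (y axis) against the mean log2 ratio of hairpins 2 and 3 (x axis) for 17059 of 17060 genes, 1 gene lying outside the axes, with HIF subunits and the oxygen sensor in dark gray, HIF targets in red, glucose uptake and glycolysis genes in blue, DDIT4 as a diamond and the line of equal values dashed. BNIP3, ANKRD37, NDRG1 and PFKFB4 lie far below the line at an x value near 0, whereas PFKL, PKM, MXI1 and LDHB lie nearer to the line.

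Glucose uptake and the first steps of glycolysis showed no low value with hairpin 1. SLC2A1, the ubiquitous glucose transporter GLUT1, had log2 ratios of -0.10, -0.20 and 0.07. HK2, the inducible hexokinase that traps glucose as glucose 6-phosphate, had -0.10, 0.14 and 0.31, and HK1, the constitutive form, had -0.09, 0.41 and -0.02. GPI, which makes fructose 6-phosphate, had 0.17, 0.10 and 0.06, with hairpin 1 highest.

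Phosphofructokinase, the committed step, is built from PFKL, PFKM and PFKP subunits, which behaved differently from each other. PFKL had -0.65, -0.47 and -0.40, low with each hairpin, and its mean over the hairpins was -0.51 ± 0.12 (SD, n = 3). PFKM had 0.19, 0.09 and 0.22, and PFKP had 0.13, 0.38 and 0.02. PFKFB4 and PFKFB3 make fructose 2,6-bisphosphate, the activator of phosphofructokinase. PFKFB4 had -0.78, -0.23 and 0.23 and the largest difference of this group, -0.78, and ranked 18 among all genes, although hairpins 2 and 3 lay on opposite sides of 0 and the difference was -1.27 in the Feature Extraction ratios. PFKFB3 had -0.25, -0.13 and 0.09.

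Farther down the pathway, low values with hairpin 1 were found in particular isoforms. ALDOC, the aldolase isoform best known from brain, had log2 ratios of -0.75, -0.15 and -0.11, whereas ALDOA, the abundant isoform, had -0.17, 0.02 and 0.00. PGK1, the first ATP-making enzyme of the pathway, had -0.43, -0.10 and 0.07. Its 10 spots had an SD of 0.0338, 0.0177 and 0.0346 on the 3 arrays, and the highest spot with hairpin 1 (-0.39) lay below the lowest spot with hairpin 2 (-0.13) and with hairpin 3 (0.02). The spots do not overlap, but they are repeats within an array and not separate cultures. GAPDH, with 10 spots as well, had 0.13, 0.30 and 0.35, but -0.02, 0.05 and 0.07 in the Feature Extraction ratios.

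The remaining enzymes of the lower part were less separated. The triose phosphate isomerase TPI1 had -0.12, -0.12 and 0.02, the enolase ENO1 had -0.30, -0.23 and -0.14, and the phosphoglycerate mutase PGAM1 had -0.09, -0.39 and -0.23. PKM, the pyruvate kinase of most tissues, had -0.35, -0.40 and -0.58, with a mean of -0.45 ± 0.12 (SD, n = 3), and so was low with each hairpin and lowest with hairpin 3. PGAM1, PKM, GPI and EPAS1 were the 4 measured genes of the set with a higher ratio with hairpin 1 than with both other hairpins.

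The exit from glycolysis held several of the lowest genes with hairpin 1. LDHA, the lactate dehydrogenase subunit that favors lactate production, had log2 ratios of -0.65, -0.02 and -0.20, which leaves 63.5%, 98.7% and 87.2% of the shSCRM signal. LDHB, the other subunit of the tetramer, had 0.31, 0.71 and 0.47, above 0 with each hairpin, while its second probe gave -0.13, 0.17 and -0.12. SLC16A3, the monocarboxylate transporter MCT4 that exports lactate, had -0.74, -0.17 and -0.16. PDK1 and PDK3 are kinases that switch off pyruvate dehydrogenase and so keep pyruvate out of the mitochondrion. PDK1 had -0.45, -0.08 and 0.20, and PDK3 had -0.38, 0.13 and 0.05, with -0.12, 0.05 and -0.03 from its second probe.

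LDHA was measured by a pair of probes that the annotation places on different chromosomes, and their sequences are shown because the gene assignment of one rests on them. The probe reported above is annotated on chromosome 11 (chr11:18428789-18428848, hg19, plus strand), and the other on chromosome 9 (chr9:14921817-14921876, hg19, minus strand), with the same transcript, NM_005566, named for both. No part of either is singled out in capitals.
LDHA, chromosome 11: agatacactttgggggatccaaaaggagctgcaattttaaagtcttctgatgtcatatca
LDHA, chromosome 9: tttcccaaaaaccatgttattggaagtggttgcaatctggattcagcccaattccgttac
The chromosome 9 probe gave -1.03, -0.39 and -0.60. It was lower than the chromosome 11 probe on each array, but its difference between hairpin 1 and the others, -0.53, was close to the -0.55 of the chromosome 11 probe. Whether it reads LDHA RNA or that of a copy elsewhere cannot be told from the array files.

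Over the 10 genes of the set with more than 1 kept probe, all probes of 6 genes had a difference below 0 (LDHA, LDHB, P4HA2, PDK3, PFKP and VEGFA), and all those of PGAM1 were above 0. The probes of BNIP3L, HIF1A and MXI1 disagreed in sign. The probes of BNIP3L were 0.965 apart and those of PDK3 0.345, whereas those of the other 8 genes were at most 0.174 apart. Most genes of the set had a single spot per array. Over 300 probes with repeated spots, the SD of the log2 ratio between spots was 0.0554 to 0.0589 on the 3 arrays, and the median standard error of the difference between hairpin 1 and the others was 0.108 in the limma fit over all genes.

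The difference between hairpin 1 and the mean of hairpins 2 and 3 had a median of -0.35 over HIF targets, -0.22 over glucose uptake and glycolysis genes and 0.00 over all genes. It was below -0.5 for 9 of the 36 genes, 4 HIF targets and 5 glucose uptake and glycolysis genes, where 1.08% of all genes lay below -0.5. Nothing is read from this count, since the genes were selected on the same ratios.

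The median ratios of the brightest 5% of genes stood above those of all genes, so brightness is given beside the ratios. Of the 22 glucose uptake and glycolysis genes, 8 were among the brightest 5% of genes (854 genes), but none of the 11 HIF targets was. The brightest 5% had median log2 ratios of 0.07, 0.14 and 0.14 with hairpins 1, 2 and 3 and a median difference of -0.05. Of these 854 genes, 430 were lower with hairpin 1 than with both others and 258 were higher. The 8 bright glycolysis genes (ALDOA, GAPDH, GPI, LDHA, LDHB, PGAM1, PGK1 and TPI1) had a median difference of -0.18. Of these 8, 6 were lower with hairpin 1 than with both others and 2 were higher. The 14 glycolysis genes outside this class had a median difference of -0.25, with 10 lower than both and 1 higher. The part of brightness in the ratios was not tested. The HIF targets ran from the 21.1st percentile of brightness (KDM3A) to the 88.5th (BNIP3).

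**Figure D3:**
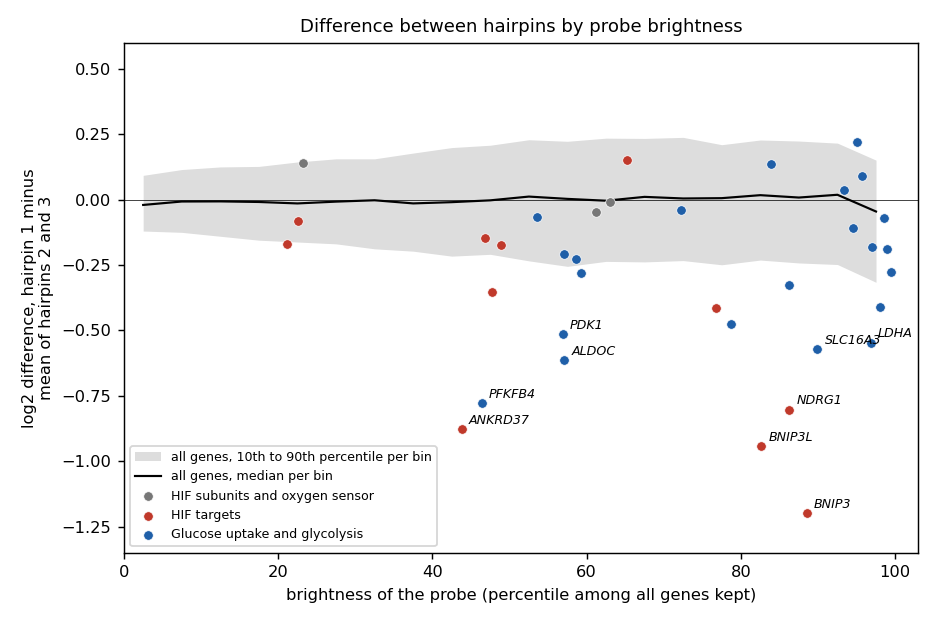
Difference in log2 ratio between hairpin 1 and the mean of hairpins 2 and 3 (y axis) against the brightness of the probe as a percentile among all kept genes (x axis), with genes colored by group, the median of all genes per bin of 5 percentiles as a line and the 10th to 90th percentile range shaded. The line stays near 0 up to the last bin, where it is -0.05. The genes with a difference below -0.5 lie below the shaded range, from the 43.8th percentile of brightness (ANKRD37) to the 96.8th (LDHA).

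Other genes of the same pathways, in lists chosen with earlier results of these arrays known, were examined for whether they followed the set. Of 124 listed genes in 5 lists, 105 were measured. By limma with Benjamini-Hochberg adjustment over all genes, 1 of the 105 was lower and 1 higher in the difference between hairpin 1 and the others, and 1 was lower in the mean of the 3 hairpins. Over all genes, 132 were lower (0.774%) and 28 higher (0.164%) in the difference, and 67 were lower (0.393%) and 55 higher (0.322%) in the mean, so the counts among the 105 genes lay near the background. With median centring in place of loess the split over all genes turned to 12 lower and 37 higher in the difference, and to 1963 lower and 2 higher in the mean. None of the 3 calls held under all alternatives. In the fit of the difference, hairpin 1 is an arm of 1 array, and the spread rests on hairpins 2 and 3 and on limma's prior, with the single array assumed to vary alike.

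The low gene in the difference was DDIT4, an inhibitor of mTORC1 that is induced by hypoxia and by other stresses. It had log2 ratios of -1.10, 0.81 and 0.12 with hairpins 1, 2 and 3, and its 10 spots had an SD of at most 0.0715 on any array. The hairpins therefore ran in opposite directions, with spots that did not overlap. The difference of -1.57 ± 0.21 (standard error; limma adjusted p = 0.0133) ranked 1 among all genes. Over 7 other ways of processing the difference ran from -1.72 to -1.45 and the adjusted p from 0.00893 to 0.674, under 0.05 in 2.

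The high gene was IGFBP3, a binding protein for insulin-like growth factors, which had ratios of 0.53, 0.03 and -0.18. Its difference was 0.61 ± 0.12 (standard error; limma adjusted p = 0.0383), opposite in sign to the HIF targets of the set. Its adjusted p ran from 0.0285 to 0.674 over the same 7 alternatives, under 0.05 in 2. Among the 38 other HIF targets that were measured, 20 were lower with hairpin 1 than with both others and 4 were higher, where 37.5% and 35.7% of all genes did so, and the median difference was -0.09, smaller in size than the -0.35 of the HIF targets of the set. BHLHE41, a circadian repressor, had -0.46, -0.04 and 0.01, a difference of -0.45 that did not pass (limma adjusted p = 0.0928).

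**Figure D4:**
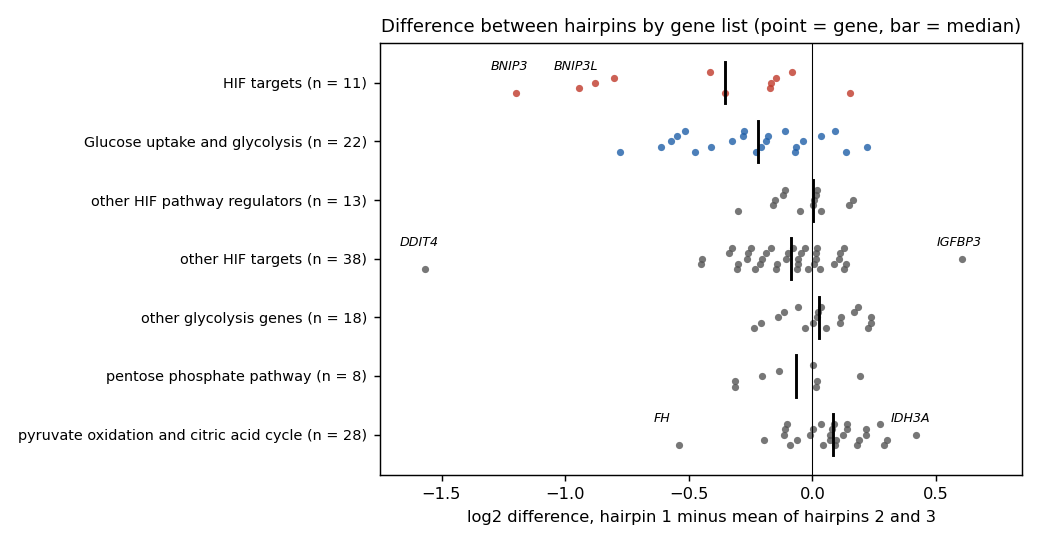
Difference in log2 ratio between hairpin 1 and the mean of hairpins 2 and 3 (x axis) for each measured gene of each list (y axis), with HIF targets in red, glucose uptake and glycolysis genes in blue and the 5 other lists in gray; each point is a gene and each bar the median of its list. The bars of the other lists lie between -0.09 and 0.08, with DDIT4 at -1.57 and IGFBP3 at 0.61 apart from the rest.

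Of the 28 measured genes of pyruvate oxidation and the citric acid cycle, which burn pyruvate in the mitochondrion, 17 had a higher ratio with hairpin 1 than with both others and 5 a lower one, where 35.7% and 37.5% of all genes did so, and the median difference was 0.08. IDH3A, a subunit of isocitrate dehydrogenase, was the gene lower in the mean of the 3 hairpins. It had log2 ratios of -0.26, -0.66 and -0.70, with a mean of -0.54 ± 0.09 (standard error; limma adjusted p = 0.013), and was lowest with hairpins 2 and 3. Its adjusted p ran from 0.000153 to 0.138 over 10 alternatives, under 0.05 in 7, and it lost the call without the array of hairpin 3 (0.0675) and, by its mean of -0.48, without that of hairpin 2. Its difference between hairpin 1 and the others, 0.42, did not pass (limma adjusted p = 0.118). SUCLG2, a subunit of succinyl-CoA ligase, had 0.09, -0.26 and -0.17, with a difference of 0.30 that did not pass (limma adjusted p = 0.285). FH, fumarate hydratase, had -0.25, 0.73 and -0.16, so that hairpin 2 stood apart from the others (difference -0.54, limma adjusted p = 0.434).

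The 13 regulators of HIF, among them ARNT, VHL and the asparaginyl hydroxylase HIF1AN, had a median difference of 0.00, with 5 lower in hairpin 1 than in both others and 4 higher. The 18 measured genes among the other glycolysis genes had a median difference of 0.03, with 6 lower than both and 10 higher. The 8 pentose phosphate genes had -0.07, with 4 lower and 3 higher, against the same shares of 37.5% and 35.7% over all genes.

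Beside these results, the 7 prostate markers had a median log2 ratio of -0.26 with hairpin 1, 0.09 with hairpin 2 and -0.13 with hairpin 3. Of the 7, 4 were lowest with hairpin 1, where 37.5% of all genes were. TMPRSS2 (-0.37, -0.35 and -0.54) and FOLH1 (-0.26, 0.23 and -0.66) were lowest with hairpin 3. KRT8 had -0.38, -0.39 and -0.26, and KRT18 stood above 0 with each hairpin (0.18, 0.47 and 0.40). HOXB13, a luminal transcription factor, had -0.73, -0.22 and -0.13, a difference of -0.55 ± 0.11 (standard error; limma adjusted p = 0.0384) that passed in 1 of 7 alternatives. Their part in the ratios of the hypoxia and glycolysis genes was not tested. With bulk RNA from a culture, fewer cells with a transcript and less transcript per cell cannot be told apart.

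**Figure D5:**
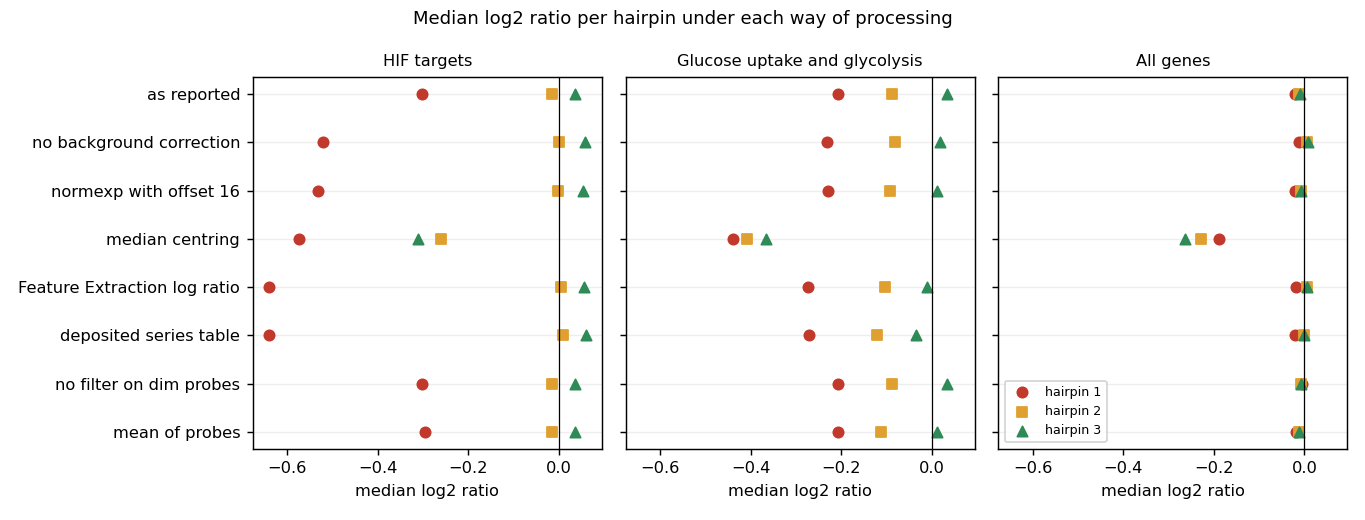
Median log2 ratio (x axis) of HIF targets, of glucose uptake and glycolysis genes and of all genes with hairpin 1 (circles), hairpin 2 (squares) and hairpin 3 (triangles) under the processing reported and 7 alternatives (y axis). The circle of the HIF targets is the lowest symbol in each row, from -0.64 to -0.30, while under median centring without loess the symbols of the glycolysis genes lie between -0.44 and -0.37.

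Since the genes were chosen on this contrast, their counts across ways of processing are descriptions. Of the HIF targets, 10 of the 11 were lower with hairpin 1 than with both others under the processing reported and under 7 alternatives, while their median difference ran from -0.59 to -0.28. For glucose uptake and glycolysis genes this count was 10 to 16 of 22 (45.5% to 72.7%). Over all genes, 24.1% to 38% were lower with hairpin 1 than with both others. The lowest count and the lowest share of all genes both came with median centring in place of loess. There the median ratios of the glucose uptake and glycolysis genes were -0.44, -0.41 and -0.37. The medians of all genes moved to -0.19, -0.23 and -0.26. The median difference of the glucose uptake and glycolysis genes was -0.10 rather than -0.22, and that of all genes 0.05 rather than -0.005. Less the median of all genes, it was -0.15 rather than -0.21, and for HIF targets -0.35 both ways.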

How the data were processed

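Per array, the authors deposited scanner values with the mean intensity and background intensity of every spot in Cy5 and Cy3 and a log10 ratio from Agilent Feature Extraction 11.5.1.1, and a table of log2 values per gene name. For 10964 genes with 1 probe, 99.9% of the deposited log2 values lay within 0.02 of the Feature Extraction ratio. All 3 arrays lay on 1 slide.

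In R 4.3.3 with limma 3.58.1, background was corrected (normexp, offset 50), control spots were left out and outlier spots set aside, ratios were normalized by loess within arrays, and spots of a probe were averaged. The offset draws ratios of dim probes toward 0. Each gene took its brightest kept probe. The mean ratio was tested against 0, and hairpin 1 against hairpins 2 and 3 (1 residual degree of freedom, with prior 10.1), with Benjamini-Hochberg adjustment over all genes; calls needed an adjusted p under 0.05 and a size above 0.5. Both fits were tested on simulated data with a log2 change of 1 in 200 genes. They recovered 100% of these, and called 1 unchanged gene in the mean and 8 in the difference. Smaller changes were not simulated. The p-values measure the spread between these arrays only. The number of arrays limits the precision.

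The genes and lists were chosen with earlier results of these data known. All measured genes of the set are named; of the other lists, genes called in either fit and the 3 lowest and 3 highest differences. Array coordinates are hg19 as annotated. All 39 symbols matched RefSeq (GRCh38.p14), used for names and upstream sequences. Part of the prostate marker list is not reported here; it was dropped once values were known, for a reason unrelated to them.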

Additional observations from a re-analysis of the deposited data

How the results depend on the processing

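SPINK1, the counts of calls, the ratios and medians of the set, and the genes called in other lists were recomputed with no background correction, an offset of 16, median centring, the Feature Extraction log ratio, the deposited table, no filter, the mean of probes, and, except for tests of hairpin 1 against the others, each array left out. SPINK1 stayed past the threshold in all 10, from -4.09 to -3.68, and no called result changed sign; the cause of the changes below was not tested. The difference between hairpin 1 and the others changed sign under some alternative for 10 of the 36 genes of the set (ALDOA, EGLN1, ENO1, GAPDH, HIF1A, MXI1, PFKM, PFKP, SLC2A1 and TPI1), 8 of them with median centring, and for 0 of the 9 below -0.5. Of those 9, ANKRD37, BNIP3L and PFKFB4 moved by over 1.5 times: ANKRD37 to -1.64 and PFKFB4 to -1.27 by Feature Extraction, and BNIP3L to -0.39 by the mean of probes. With median centring the median difference over all genes moved too, from -0.005 to 0.05. Each ratio pairs shSPINK1 with shSCRM RNA on 1 array, and these ratios form a single group, so no further pairing was used. Each hairpin had 1 array, so its error cannot be estimated from hairpin 1 alone, and probes near background carry little information.

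Without background correction, the calls for hairpin 1 against the others were 0 lower and 0 higher (309 and 91 at an unadjusted p under 0.05 and beyond 0.5), with 0 in other pathway lists; with an offset of 16 they were 3, 1 and 0; by Feature Extraction 0, 0 and 0 (767 and 385 unadjusted); with the deposited values 0, 0 and 0 (616 and 334 unadjusted); with median centring 12 were lower and 37 higher, against 132 and 28 as reported; with no filter 13 were higher, and 0 in other pathway lists. The counts in the mean of 3 hairpins became 3 lower and 0 higher by Feature Extraction and in the deposited table, with 0 in other lists in each; 1963, 2 and 18 with median centring; 113 lower with an offset of 16; and 33 higher with the mean of probes. Leaving out an array gave 70 to 96 lower, 45 to 129 higher (129 without hairpin 1) and 0 to 1 in other lists.

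Genes below -0.5 with hairpins 1, 2 and 3 numbered 1064, 968 and 843 by Feature Extraction, 988, 889 and 780 in the deposited table, 1402, 2648 and 3057 with median centring, 284, 255 and 188 without background correction, and 348, 294 and 221 with an offset of 16. Of the 36 genes of the set these were 16, 9 and 9 with median centring, 2 with hairpin 3 by Feature Extraction, 1 and 2 with hairpins 2 and 3 in the deposited table, and 0 with hairpin 2 by the mean of probes.

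The median difference of HIF targets was -0.59 by Feature Extraction, -0.48 in the deposited table, -0.28 by the mean of probes, -0.29 with median centring, -0.44 without background correction and -0.45 with an offset of 16; it was -0.44 without the array of hairpin 2 and -0.26 without that of hairpin 3. That of glycolysis genes was -0.10 with median centring, where that of all genes was 0.05. The median ratio of HIF targets with hairpin 1 was -0.64 by Feature Extraction and in the deposited table, -0.57 with median centring, -0.52 without background correction and -0.53 with an offset of 16. With median centring it was -0.26 and -0.31 with hairpins 2 and 3, and for glycolysis genes -0.44, -0.41 and -0.37 with hairpins 1, 2 and 3.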
